A study of Arabidopsis thaliana with 9 samples.

Results

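AT1G26240 and AT1G26250 are a pair of adjacent genes on chromosome 1 of Arabidopsis thaliana that the annotation describes as proline-rich extensin-like proteins. They were taken by gene ID, 2 genes of the 32833 listed and of the 20272 tested, and had been selected on their reads and RPKM in mock, 6 h and 24 h in these same libraries. The levels and changes that follow are therefore a description of the pair, with no test. RNA was sequenced from roots of seedlings aged 4 to 5 days that carry p35S::XVE>>pLexA::STZ in Col-0, a single line in which estradiol switches on the zinc finger repressor STZ. XVE is an estradiol-activated transcription factor made from the constitutive 35S promoter. Of the 3 groups, with 3 libraries each, the mock received ethanol over 24 h. The others received estradiol at 20 µM, either over 6 h or over 24 h. All groups carry the transgene and the 6 h group has a 24 h mock, so an effect of estradiol itself, of the hour of harvest and of STZ cannot be told apart.

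Extensins are rod-like glycoproteins of the plant cell wall. Runs of proline after a serine are hydroxylated and decorated with arabinose, and tyrosines between these runs are joined by wall peroxidases, so that the proteins form a network inside the wall. In roots several extensins are made mainly in root hairs, and others are known from wounding and defense. A bulk root library does not tell more RNA per cell from more cells that make it.

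In the RefSeq annotation of TAIR10.1, AT1G26240 covers chr1:9077874-9079646 on the minus strand and AT1G26250 covers chr1:9083838-9085464 on the plus strand. Each is a single exon, of 1773 and 1627 bases, with 1437 and 1332 coding bases. The genes point away from each other, with 4191 bases between their start sites and no annotated gene in that stretch. STZ lies 562556 bases away on the same chromosome, with 162 protein-coding genes between. The 250 bases before each start site (chr1:9079647-9079896, minus strand, and chr1:9083588-9083837, plus strand) are shown because both genes were high after 24 h. Capitals mark exact runs of 9 or more bases that both windows hold in the same orientation.
AT1G26240 upstream: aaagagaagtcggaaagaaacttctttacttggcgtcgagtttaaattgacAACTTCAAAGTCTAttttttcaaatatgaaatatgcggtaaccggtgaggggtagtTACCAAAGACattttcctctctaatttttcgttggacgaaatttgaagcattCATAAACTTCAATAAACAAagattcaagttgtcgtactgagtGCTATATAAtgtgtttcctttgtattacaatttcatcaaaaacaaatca
AT1G26250 upstream: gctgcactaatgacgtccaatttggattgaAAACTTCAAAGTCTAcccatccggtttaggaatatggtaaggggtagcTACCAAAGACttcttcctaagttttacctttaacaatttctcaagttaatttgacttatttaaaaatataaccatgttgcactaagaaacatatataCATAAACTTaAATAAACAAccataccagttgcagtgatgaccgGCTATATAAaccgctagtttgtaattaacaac
The longest shared run, aacttcaaagtcta, spans 14 bases and starts at position -199 of AT1G26240 and -219 of AT1G26250, counted from the start site. Of 27443 upstream windows of this length, 2 held it on either strand, namely this pair, from which the run was taken. The next run, TACCAAAGAC, started at -143 and -172 and was found in 17 windows (0.062%). Shorter runs of 9 bases were found in 120 to 660 windows, and GCTATATAA among them started at -49 and -32. The word TATAAA on the gene's own strand was found in AT1G26250 at -28 and not in AT1G26240 (32.9% of windows hold it). TTGAC, the core of the W-box bound by WRKY factors, was found on 1 strand of each window (44.9% of windows). CACGTG was found in neither (6.49% of windows). A pair of words AGT or ACT with 4 bases between was found in both windows, at -198 and -218 (21.7% of windows). These matches lie within the longest shared run. Such a pair with 3 bases between was found in AT1G26250 alone, at -49 (20.7% of windows). A sequence known as the root hair element was found in neither (0.754% of windows). A match is a run of letters and no evidence of binding.

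The coding sequences were 84.15% identical over 1306 aligned bases, and both are built from repeats. AT1G26240 holds a stretch of 248 bases in 2 overlapping copies, the first at chr1:9078855-9079102 (minus strand). The longest repeat of AT1G26250 has 68 bases, the first copy at chr1:9085061-9085128 (plus strand). One copy of each is shown, since repeats bear on whether reads can be placed. Capitals mark TATGTNTA or TACGTNTA, the words that recur between the proline-rich runs.
AT1G26240 repeat: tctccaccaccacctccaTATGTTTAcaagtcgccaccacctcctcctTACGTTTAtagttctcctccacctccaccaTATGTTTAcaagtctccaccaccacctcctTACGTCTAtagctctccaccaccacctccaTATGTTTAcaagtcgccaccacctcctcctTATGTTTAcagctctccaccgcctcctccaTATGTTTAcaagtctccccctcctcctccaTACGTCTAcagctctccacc
AT1G26250 repeat: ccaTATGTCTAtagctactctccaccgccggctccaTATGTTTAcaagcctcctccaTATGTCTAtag
The longest run common to both coding sequences has only 35 bases, shorter than the 100-base reads. No 100-base window of either exon occurs elsewhere in the genome, in 1674 windows of AT1G26240 and 1528 windows of AT1G26250. Within AT1G26240, 298 windows (17.8%) occur more than once.

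Both genes were far above mock after 24 h of estradiol, and they differed at 6 h. Levels per exon length are given as RPKM, reads scaled by the length of the exon and by the mapped reads of the library. AT1G26240 had 0.185, 0.188 and 0.380 RPKM in the mock libraries, 3.76, 2.05 and 1.11 RPKM at 6 h, and 27.7, 32.01 and 26.3 RPKM at 24 h. The 3 groups did not overlap, and each step was upward. AT1G26250 had 13.2, 11.9 and 13.6 RPKM in mock, 11.1, 10.11 and 7.72 RPKM at 6 h, and 230.4, 297.6 and 280.1 RPKM at 24 h. Its 6 h libraries lay just below all mock libraries, and its 24 h libraries lay far above both. Of all tested genes, 13.1% were called at 6 h against mock, 35.6% at 24 h against mock and 24.6% at 24 h against 6 h.

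**Figure D1:**
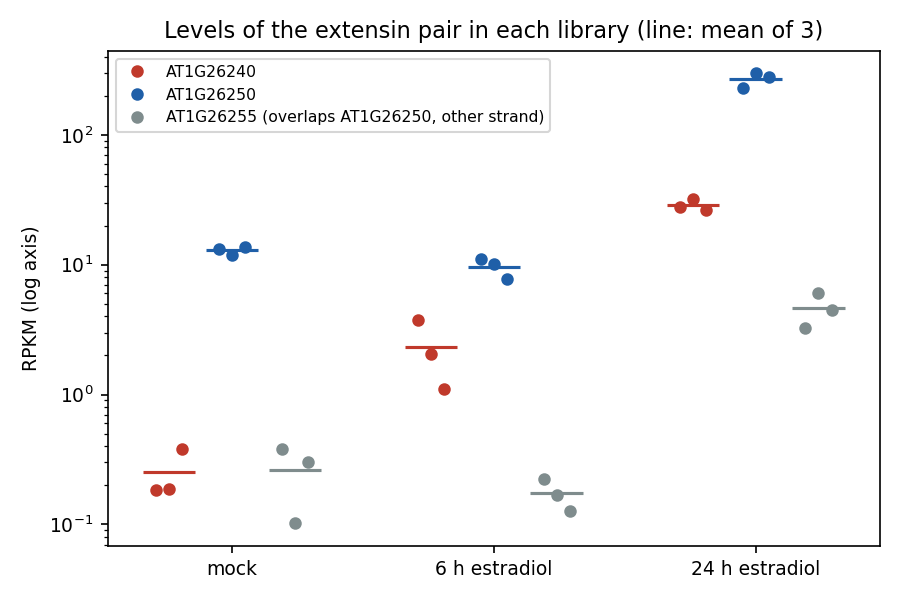
Level of AT1G26240, AT1G26250 and AT1G26255, the gene that overlaps AT1G26250 on the other strand, in each library, in RPKM on a log axis. Points are the 3 libraries of a group and lines their mean. AT1G26240 stood apart in all 3 groups, and AT1G26250 was high at 24 h, with a mean of 269 RPKM.

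AT1G26240 was close to silent without estradiol. It had 9, 10 and 22 reads in mock, 183, 105 and 57 reads at 6 h, and 1488, 1451 and 1245 reads at 24 h. Its level averaged 28.7 ± 2.98 RPKM at 24 h against 0.251 ± 0.112 RPKM in mock (SD, n = 3 each), a log2 change of 6.87 (SE 0.39), or about 117-fold. The 6 h mean was 2.30 ± 1.34 RPKM, a log2 change of 3.17 (SE 0.47) over mock, or 9.01-fold. From 6 h, the 24 h libraries were higher by a log2 change of 3.70 (SE 0.29). The libraries of the 6 h group were unequal, with a coefficient of variation of 57.3% in CPM (reads scaled to an equal library total), against 14.9% at 24 h. STZ reads did not follow that order, at 1294, 989 and 1278 CPM in the same 3 libraries. The few mock reads make the fold change depend on the scale. On log2(RPKM + 1), where the added 1 exceeds every mock value, the change was 1.32 at 6 h and 4.57 at 24 h.

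AT1G26250 was readily detected in mock and was raised only in the 24 h libraries. It had 588, 580 and 722 reads in mock, 494, 476 and 365 reads at 6 h, and 11340, 12381 and 12183 reads at 24 h. Its level averaged 269 ± 34.9 RPKM at 24 h against 12.9 ± 0.896 RPKM in mock (SD, n = 3 each), a log2 change of 4.47 (SE 0.15), or 22.1-fold. The 6 h mean was 9.63 ± 1.72 RPKM, a log2 change of -0.40 (SE 0.14) from mock. Between the estradiol groups the log2 change was 4.86 (SE 0.16), 24 h over 6 h. By mean RPKM, AT1G26250 ranked 232 among 23523 genes with reads at 24 h, and 8309 among 22899 in mock. AT1G26240 ranked 4245 at 24 h and 19735 in mock.

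The balance within the pair moved with treatment. AT1G26250 was the more abundant gene in every library, but by very different margins. Per exon length it exceeded AT1G26240 by 71.2, 63.2 and 35.8 times in the mock libraries, by 2.94, 4.94 and 6.98 times at 6 h, and by 8.30, 9.30 and 10.7 times at 24 h. The 3 groups of ratios did not overlap, and the 6 h group was the closest to equal. As a share of the pair's reads, AT1G26240 averaged 2.05 ± 0.788% in mock, 19.5 ± 6.88% at 6 h and 10.5 ± 1.16% at 24 h (SD, n = 3 each). The ratio within a library does not depend on how the library is scaled.

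**Figure D2:**
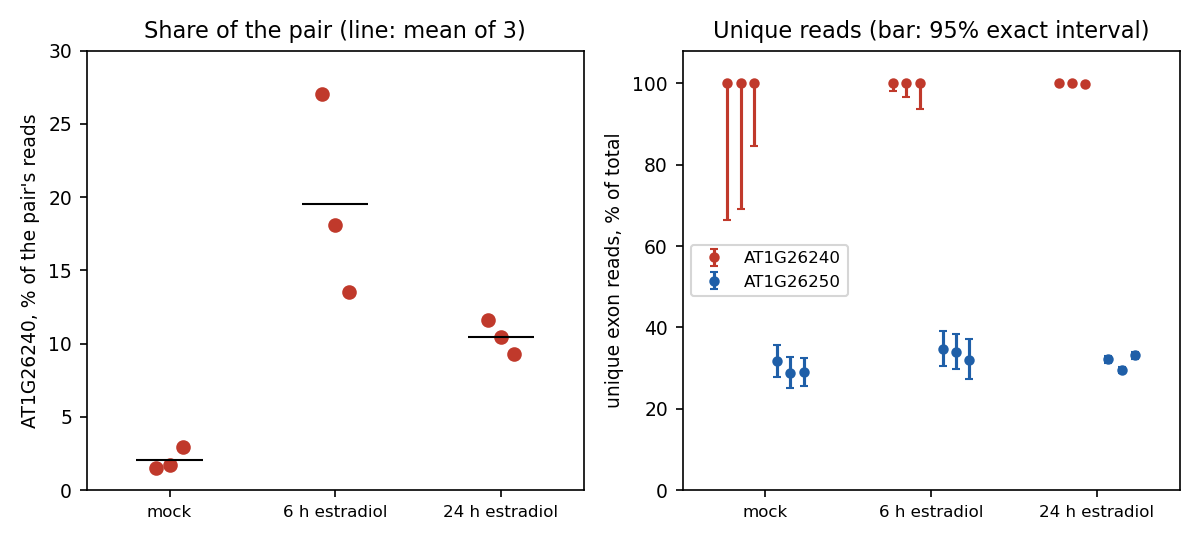
Left, reads of AT1G26240 as a percentage of the reads of the pair in each library, with group means as lines. Right, unique exon reads as a percentage of total exon reads, with 95% exact binomial intervals. The share of AT1G26240 ran between 13.5% and 27.03% at 6 h, and unique reads of AT1G26250 lay between 28.8% and 34.8% in all libraries.

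Reads that the authors counted as unique give a check on shared reads. For AT1G26240 all but 1 of the reads were unique over the 9 libraries. For AT1G26250 the unique share was 31.6%, 28.8% and 28.9% in mock, 34.8%, 34.0% and 32.1% at 6 h, and 32.1%, 29.5% and 33.2% at 24 h. These shares differed little between groups. The widest 95% exact binomial interval among them, for 1 library at 6 h, ran from 27.3% to 37.1% and covers counting error only. With unique reads alone, AT1G26250 had 186, 167 and 209 reads in mock, 172, 162 and 117 at 6 h, and 3645, 3657 and 4041 at 24 h. The log2 change from unique reads was 4.55 at 24 h against mock and -0.21 at 6 h against mock, next to 4.47 and -0.40 from all reads, and the unique counts of the 6 h and mock libraries overlapped. With unique reads AT1G26250 exceeded AT1G26240 by 9.5 to 20.7 times in mock, by 0.940 to 2.05 times at 6 h and by 2.45 to 3.25 times at 24 h. In 1 of the 6 h libraries AT1G26240 thus had more unique reads than AT1G26250. These are ratios of counts and not per length. Another gene covers 88.7% of the AT1G26250 exon, and no gene overlaps AT1G26240. The unique counts therefore do not show which member was more abundant.

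AT1G26250 overlaps another gene, and neither member has a duplicate of read length elsewhere. AT1G26255, an uncharacterized gene at chr1:9083856-9085651 on the minus strand, covers 1443 bases, or 88.7%, of the AT1G26250 exon. No gene overlaps AT1G26240, whose reads were unique in spite of its internal repeats. Among genes with at least 500 reads, the median unique share was 100% for 12627 genes with no exon under a gene of the other strand. It was 72.2% for 61 genes overlapped over 50 to 70% of the exon, and 9.38% for 74 genes overlapped over more than 70%. The strand setting of the counting was not stated, so the reads of AT1G26250 and AT1G26255 that were not unique cannot be told apart. At 24 h the unique reads numbered 3645, 3657 and 4041 for AT1G26250 and 59, 129 and 83 for AT1G26255.

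**Figure D3:**
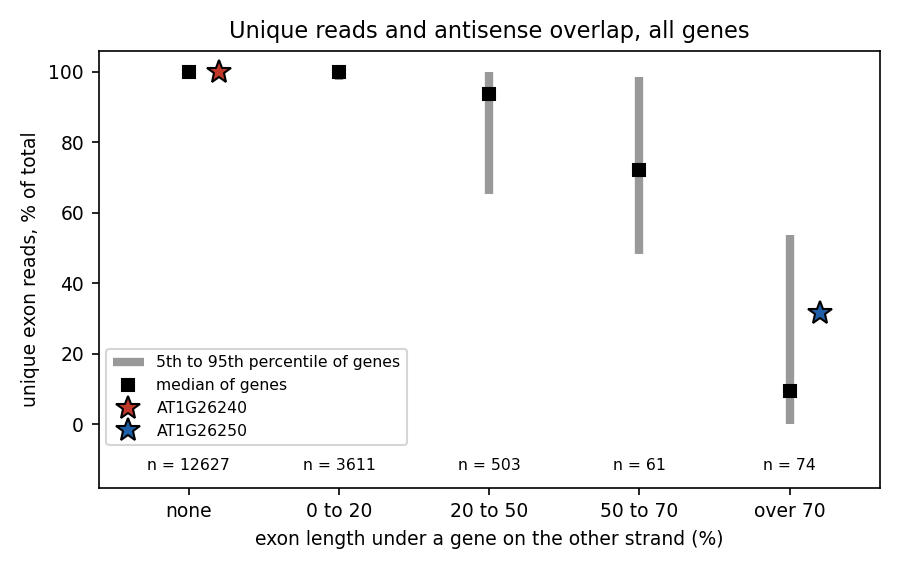
Unique exon reads as a percentage of total exon reads, over all libraries, by how much of a gene's exon lies under a gene on the other strand. Squares are medians and bars the 5th to 95th percentile of genes with at least 500 reads. AT1G26240 lies at 100% with no overlap and AT1G26250 at 31.6% with 88.7% overlapped.

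The reads assigned to AT1G26255 were few and followed those of AT1G26250. It had 17, 5 and 16 reads in mock, 10, 8 and 6 reads at 6 h, and 161, 254 and 196 reads at 24 h. This was between 0.855% and 2.81% of the reads of the overlapping pair in every library, in no order of the groups. AT1G26255 was tested as a neighbour and was called higher at 24 h than in mock, with a log2 change of 4.22 (SE 0.35). AT1G26250 covers 88.5% of its exon, and 43.1% of its reads were unique. Its unique reads alone numbered 8, 3 and 2 in mock, 1, 4 and 1 at 6 h, and 59, 129 and 83 at 24 h. The call was made on all its reads, most of them not unique. It is therefore not fully separate from the level of AT1G26250, which was chosen with its values known. Unique reads of AT1G26255 were not tested on their own. Adding its reads to those of AT1G26250 left the log2 change of AT1G26250 at 4.46 at 24 h and -0.40 at 6 h.

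The genes around the pair were read beside it. The list of 10 genes, 5 on either side, held 9 tested genes. At 24 h against mock 2 were called higher (22.2%) and 0 lower, where 17.6% of all tested genes were called higher and 18.0% lower. One was AT1G26255. The other was AT1G26220, whose start site is 8.51 kb from that of AT1G26240, with a log2 change of 0.60 (SE 0.16). It lost its call without 24 h replicate 1 or 2 or without mock replicate 1 or 3, with log2 changes between 0.53 and 0.68 when single libraries were left out, and by DESeq2, by limma on RPKM or with total counts alone. At 6 h, 0 genes were called higher and ATSOFL1 was called lower at -0.61 (SE 0.15), where 5.43% of all tested genes were called higher and 7.71% lower. That call was lost when any 1 of the mock or 6 h libraries was left out, at log2 changes between -0.66 and -0.54. BHLH76, a bHLH transcription factor gene beyond AT1G26255, had log2 changes of -0.28 (SE 0.13) at 24 h and 0.09 (SE 0.12) at 6 h, neither called. AT1G26290, with 120 reads in all libraries, of which 15.8% were unique, had 1.04 (SE 0.80) at 24 h and 1.60 (SE 0.74) at 6 h, and AT1G26200 had -0.82 (SE 0.35) and 0.14 (SE 0.30), none called. CPN60B4, a chaperonin subunit gene next to AT1G26240, had 0.11 (SE 0.30) at 24 h and -0.37 (SE 0.31) at 6 h, also not called.

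**Figure D4:**
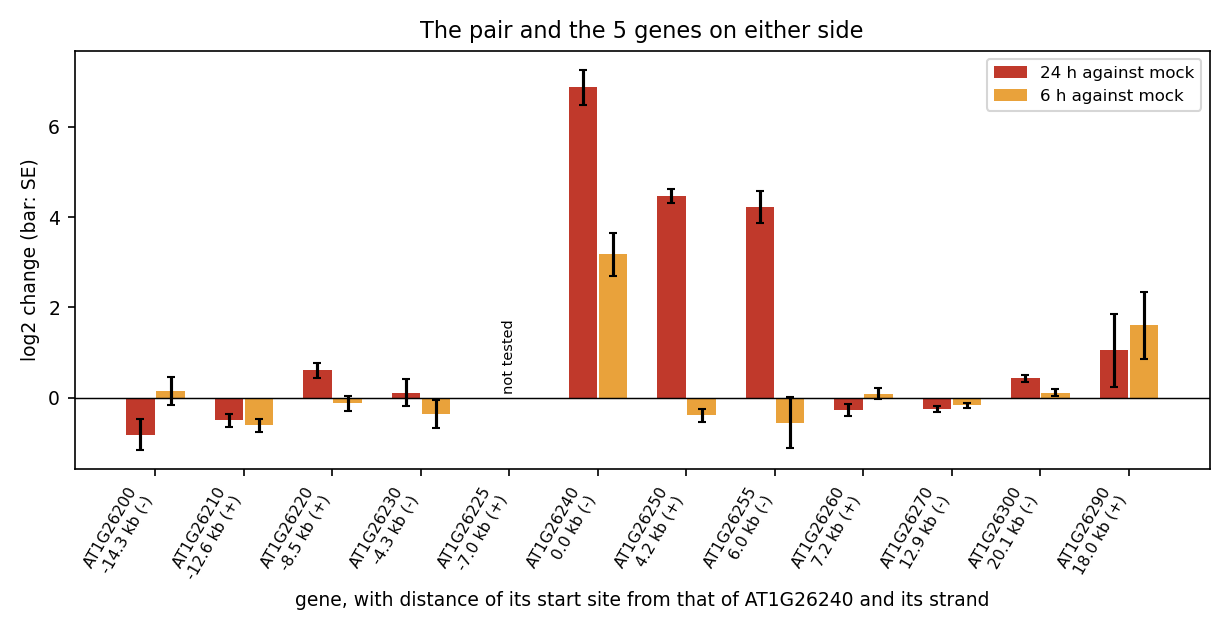
log2 change against mock at 24 h and 6 h for the pair and the 10 genes around it, in order along the chromosome, with the distance of each start site from that of AT1G26240. Bars carry the SE. AT1G26240, AT1G26250 and AT1G26255 rise above 4 at 24 h, and the other tested genes stay between -0.82 and 1.04.

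The wider extensin family gives the setting for the pair. The list holds 52 genes whose annotated product names an extensin, the pair and the 11 LRX and PEX genes apart, and 37 were tested. It includes AT2G25920, annotated as a pollen-specific LRR extensin-like protein, which had log2 changes of -0.06 (SE 0.11) at 24 h and -0.07 (SE 0.11) at 6 h, not called. At 6 h against mock 8 were called higher (21.6%) and 1 lower (2.70%), with a median log2 change of 0.26 beside 0.00 over all tested genes. Of all tested genes, 5.43% were higher and 7.71% lower there. At 24 h against mock 7 were called higher (18.9%) and 6 lower (16.2%), with a median of 0.09 beside -0.01. These 24 h shares were near the 17.6% higher and 18.0% lower of all tested genes. At 24 h against 6 h 4 were called higher and 13 lower, with a median of -0.38 beside -0.02, where 14.1% of all tested genes were higher and 10.5% lower. That last count of 17 fell to 11 without 6 h replicate 2. Of the 15 genes not tested, 6 had no reads and the others had at most 46 reads in all 9 libraries.

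Among the extensins and extensin-like proteins proper, more genes were called at 6 h than at 24 h. Of 18 tested, 6 were called higher (33.3%) and 0 lower at 6 h against mock. Of all tested genes, 5.43% were higher and 7.71% lower there. At 24 h against mock 2 of the 18 were higher (11.1%) and 1 lower (5.56%), below the 17.6% and 18.0% of all tested genes. The called genes among the 18 numbered 4 to 8 at 6 h, lowest without mock replicate 2, and at 24 h up to 5, without mock replicate 1. In that last fit 5 were called at 6 h as well, so the 6 h count was no longer the larger. None of the 6 was called at 24 h against mock. Of them, 5 were called lower at 24 h than at 6 h, where 10.5% of all tested genes were lower. The 6 were picked by their call at 6 h, and this comparison reuses the same 6 h libraries. A fall from 6 h is thus favoured by how they were picked. Of the 6, only 2 were called lower at 24 h than at 6 h without 6 h replicate 2, and 2 without 24 h replicate 1. With a replicate block for that comparison AT5G06640, the gene missing from the 5, was called as well, at -0.74 (SE 0.16, adjusted p = 0.0018 by edgeR). AT5G06630 averaged 104 ± 29.04 RPKM at 6 h against 33.8 ± 7.97 RPKM in mock (SD, n = 3 each), a log2 change of 1.65 (SE 0.23, adjusted p = 0.00022 by edgeR). AT2G24980 had a log2 change of 1.38 (SE 0.25) and AT4G13390 one of 1.25 (SE 0.21) at 6 h. At 24 h these 3 genes had log2 changes of 0.59, 0.45 and 0.32 against mock, none called. AT4G08410 rose by 1.20 (SE 0.20) at 6 h and AT4G08400 by 1.03 (SE 0.20), but only 75.8% and 67.1% of their reads were unique. AT4G08400 was not called without mock replicate 2, at a log2 change of at least 0.77 in any fit that left out a library.

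The 2 extensins of this group called higher at 24 h were AT1G23720 and ATEXT4. AT1G23720 had a log2 change of 0.82 (SE 0.11, adjusted p = 3.6e-05 by edgeR) at 24 h against mock, and ATEXT4 one of 0.95 (SE 0.21, adjusted p = 0.0014). AT1G77400 was the 1 extensin-like gene called lower, with -0.82 (SE 0.17), a call lost on log2(RPKM + 1). The most abundant extensin was EXT3, which is needed to assemble the wall of dividing embryo cells. It averaged 3523 ± 251 RPKM at 24 h against 5451 ± 629 RPKM in mock (SD, n = 3 each), a log2 change of -0.55 (SE 0.13) that was not called, though it was without 24 h replicate 2, without mock replicate 1 (log2 changes down to -0.65) or with total counts alone. AT2G43150 followed at 2880 ± 363 RPKM at 24 h and 2444 ± 113 RPKM in mock (SD, n = 3 each), with a log2 change of 0.32 (SE 0.14).

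**Figure D5:**
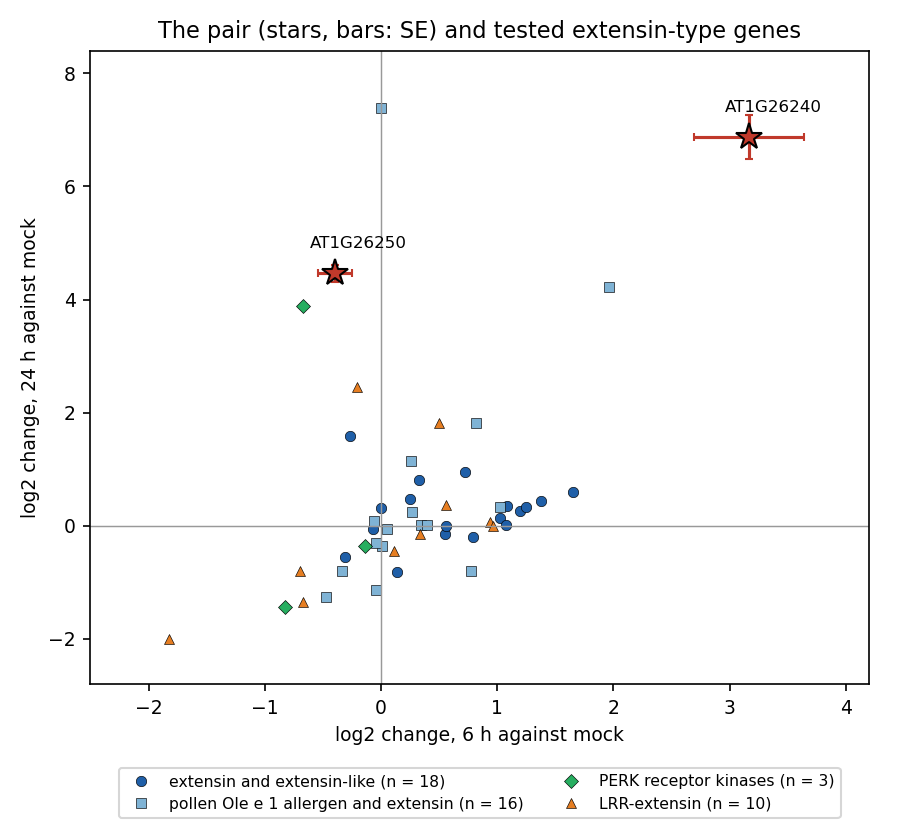
log2 change at 24 h against mock (vertical) and at 6 h against mock (horizontal) for the pair, shown as stars with SE bars, and for tested genes of the extensin and LRR-extensin lists. Most extensins lie right of 0 with small values at 24 h, the 6 h values of the extensin group reaching 1.65. The square at 7.38 is AT5G05020, which had no reads in mock or at 6 h.

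Genes with a pollen Ole e 1 allergen and extensin domain were called in both directions. Of 16 tested, 4 were higher (25%) and 4 lower (25%) at 24 h against mock, where 17.6% of all tested genes were higher and 18.0% lower. AT5G05020 had 14 to 25 reads in each 24 h library and none in the 6 others. AT4G18596 had 63 to 83 reads in each 24 h library and a log2 change of 4.22 (SE 0.64, adjusted p = 0.00010 by edgeR), but only 16.7% of its reads were unique. SAH7 fell by 1.13 on the log2 scale (SE 0.09, adjusted p = 5e-07 by edgeR), and AT5G54855 fell by 1.26 (SE 0.12, adjusted p = 2.6e-06). AT5G05500 had a log2 change of 1.02 (SE 0.16) at 6 h and of 0.33 (SE 0.16, not called) at 24 h. Of the 3 extensin-like receptor kinases in the list, PERK4 had a late pattern, at 4.38 ± 1.18 RPKM at 24 h against 0.308 ± 0.0666 RPKM in mock (SD, n = 3 each). Its log2 change was 3.89 at 24 h (SE 0.25, adjusted p = 1.1e-07 by edgeR) and -0.67 at 6 h (SE 0.37, not called). PERK10 was lower at both times, with log2 changes of -1.45 (SE 0.10) at 24 h and -0.83 (SE 0.10) at 6 h.

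LRR-extensins join an extensin-like stalk to a leucine-rich head that binds signalling peptides at the wall. Of 10 tested, 2 were called higher and 2 lower at 6 h against mock, and 2 higher and 3 lower at 24 h against mock. Over all tested genes 5.43% were higher and 7.71% lower at 6 h, and 17.6% were higher and 18.0% lower at 24 h, so 2 of 10 higher at 24 h is near that share. LRX1 and LRX2, which act in root hair walls, were higher at 6 h by log2 changes of 0.94 (SE 0.17) and 0.96 (SE 0.11), and stood at 0.07 (SE 0.17) and -0.0036 (SE 0.12) at 24 h, not called. LRX3, a wall sensor of vegetative tissue, was higher at 24 h by 1.81 (SE 0.11), and PEX2, of the pollen type, by 2.46 (SE 0.15). PEX3, also of the pollen type, was lower at both times, with log2 changes of -1.998 (SE 0.09) at 24 h and -1.82 (SE 0.09) at 6 h.

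Enzymes that modify extensins included called genes at both times. Of 18 tested, 4 were called higher (22.2%) and 0 lower at 24 h against mock, where 17.6% of all tested genes were higher and 18.0% lower. At 6 h against mock 2 were higher (11.1%) and 0 lower, where 5.43% and 7.71% of all genes were. HPAT2, which adds the first arabinose to hydroxyproline, averaged 207 ± 26.96 RPKM at 24 h against 36.3 ± 2.46 RPKM in mock (SD, n = 3 each), a log2 change of 2.59 (SE 0.11, adjusted p = 5.3e-09 by edgeR). HPAT2 was the 1 called gene of 8 arabinosyltransferases tested. The other 3 genes called at 24 h were prolyl 4-hydroxylases, which make hydroxyproline, out of 5 tested. P4H4 had a log2 change of 0.71 (SE 0.09), P4H5 of 0.66 (SE 0.07) and P4H1 of 0.61 (SE 0.08). P4H1 was not called without 24 h replicate 1 or 2, at a log2 change of at least 0.54, and P4H1 and P4H5 were not called with total counts alone or by limma on RPKM. SERGT1, which adds galactose to serine, and ExAD, which adds a further arabinose, had 0.16 (SE 0.07) and 0.38 (SE 0.08) at 24 h, not called. The 2 genes called at 6 h were the root hair peroxidases PRX73 at 0.97 (SE 0.19) and PRX44 at 0.82 (SE 0.19). Without mock replicate 1 or mock replicate 2, 0 genes of the list were called at 6 h, and 1 was without 6 h replicate 2 or mock replicate 3.

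Root hair genes, many of which code for wall proteins, were measured beside the extensins. Of 32, 18 were called higher (56.25%) at 6 h against mock and 0 lower, and 3 were higher (9.38%) at 24 h against mock. Over all tested genes 5.43% were higher and 7.71% lower at 6 h, and 17.6% were higher at 24 h. The 24 h share of the list was thus below that of all tested genes. The count at 6 h was 10 without 6 h replicate 2, and 8 without mock replicate 1 or mock replicate 2. XTH13, an enzyme that rejoins xyloglucan chains, had log2 changes of 1.499 (SE 0.21) at 6 h and -0.18 (SE 0.22, not called) at 24 h. PRP1, a proline-rich wall protein, had 1.42 (SE 0.21) at 6 h and 0.23 (SE 0.20, not called) at 24 h. XTH26 had 1.57 (SE 0.25), RHS12 1.11 (SE 0.15) and EXPA18, an expansin, 0.89 (SE 0.14) at 6 h. RSL3, a bHLH regulator of hair growth, was called at 24 h with 2.45 (SE 0.19), and MRH1, a receptor-like kinase, with 0.88 (SE 0.09). Summed over the list, root hair genes held 1690 to 2111 CPM in mock, 2758 to 4119 CPM at 6 h and 1790 to 2294 CPM at 24 h. The 24 h range overlapped that of mock. The part of root hair cells in the values of the pair, at 6 h or at 24 h, was not tested.

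Genes whose levels over the 9 libraries were most like each member are given as a description, by Pearson's r of log2 CPM over the 18759 genes that averaged 1 CPM or more. For AT1G26240 they were AT5G38240 (r = 0.993), FLOT1 (0.992), GRDP2 (0.992), MIRO2 (0.991) and TUBB4 (0.991). These rose in both steps but to different extents. FLOT1, a flotillin of membrane domains, averaged 35.3 CPM at 24 h and 8.10 CPM at 6 h, against 2.93 CPM in mock, and TUBB4, a beta-tubulin, averaged 602 CPM at 24 h and 491 CPM at 6 h, against 410 CPM in mock. For AT1G26250 they were CYP71B13 (r = 0.997), SBT1.4 (0.996), LSU4 (0.996), AT1G51480 (0.996) and AT5G49780 (0.995). CYP71B13, a cytochrome P450, had log2 changes of -0.08 at 6 h and 2.95 at 24 h against mock, and SBT1.4, a subtilase, had -0.15 at 6 h and 1.997 at 24 h. The members correlated with each other at r = 0.861, and 3368 genes were closer to AT1G26240 and 3417 closer to AT1G26250 than the other member was. All of these r values share the same 9 libraries and 3 groups.

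The libraries held 24375822 to 31299634 counted reads, of which 98.5% to 98.6% were unique. STZ stood at 9643 to 11675 CPM at 24 h and 989 to 1294 CPM at 6 h, against 19.5 to 30.3 CPM in mock, as the labels say, native and transgene reads together. Root markers were present in every group, at summed levels of 308 to 469 CPM at 24 h, 302 to 441 CPM at 6 h and 311 to 337 CPM in mock. Shoot markers summed to 37.3 to 43.0 CPM at 24 h and 40.4 to 45.4 CPM at 6 h, against 172 to 181 CPM in mock. Of 5 tested, 5 were called lower at each time, where 7.71% of all tested genes were lower at 6 h and 18.0% at 24 h. Of these 5, LHCB2.1 lost its call without mock replicate 1 at either time and without several other single libraries. All 6 shoot markers had reads in each group. Xylem markers summed to 457 to 546 CPM at 24 h and 412 to 466 CPM at 6 h, against 343 to 365 CPM in mock, and root cap markers to 24.4 to 34.9 CPM and 20.8 to 25.8 CPM, against 16.3 to 18.7 CPM. Both were above mock in every estradiol library. The part of these tissues in the differences of the pair between groups was not tested.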

How the data were processed

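RNA of 9 root libraries was sequenced by the authors as paired 100-base reads from a stranded poly(A) kit. Per the study's methods and the labels, the authors trimmed reads and mapped them to TAIR10 in CLC Genomics Workbench, and deposited counts of total and of unique exon reads per gene and RPKM values, scaled by exon length and mapped reads. The deposited TPM values were not used. The labels call libraries biological replicates, and separate sowings are not stated, so the spread behind each p-value may be technical in part. Sources differ on which portion of the root was taken.

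Total counts of all 9 libraries were fitted together by edgeR 4.0.16 under R 4.3.3, after TMM scaling and filterByExpr, and tested by quasi-likelihood. A call needed an adjusted p (Benjamini-Hochberg, over 20272 genes) below 0.01 and a change of 1.5-fold or more. CPM used total counts. Sequences and gene positions are from RefSeq TAIR10.1, where 27270 of 27445 genes had the exon length of the files. The extensin list was taken from RefSeq product names. Named genes were the pair, STZ, neighbours, extensins and LRR-extensins, up to 8 genes of the modification and root hair lists by smallest p, and 5 genes of most similar pattern per member. The members and lists were chosen with earlier results of these data known. Deviations from group means of same-numbered 6 h and 24 h libraries correlated at 0.214, 0.335 and 0.152, each the best match, so the replicate block is a paired fit for that comparison. Counts of replicates differed by more than sampling noise, with a chi-square per gene of 3.09 to 23.5. Alternatives were other scalings and filters, DESeq2 1.42.0, limma 3.58.1 on log2(RPKM + 1) or log2(RPKM + 0.1), unique reads, fits of 2 groups, a replicate block, library sizes without STZ and leaving out each library. Adding the reads of AT1G26255 was chosen after seeing the data. Without molecular identifiers, intervals cover counting error only.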

Additional observations from a re-analysis of the deposited data

Results flagged for a closer look

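AT1G26250 lay below the mock mean in every 6 h library and above it in every 24 h library, with log2 changes of -0.40 at 6 h and 4.47 at 24 h against mock. The 6 h change is under the 1.5-fold limit and was -0.21 with unique reads, whose counts overlapped between 6 h and mock. The difference was not tested, since the gene was chosen for it. AT5G10130, a pollen Ole e 1 allergen and extensin gene, was called higher at 6 h against mock, with a log2 change of 0.78 (SE 0.15), and lower at 24 h against mock, with -0.80 (SE 0.16). Its log2 change at 24 h against 6 h was -1.58 (SE 0.16, adjusted p = 6.3e-06 by edgeR), and its call at 6 h was lost without 6 h replicate 1 or 3 or mock replicate 3, at 0.68 to 0.95 over the fits that left out a library. Both comparisons share the mock libraries.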

How the results depend on the processing

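On log2(RPKM + 1) the log2 change of AT1G26240 was 1.32 at 6 h and 4.57 at 24 h against mock (the added 1 exceeds its mock level), and that of AT1G26250 at 24 h was 4.28. On log2(RPKM + 0.1) AT1G26240 stood at 6.40 at 24 h. With unique reads the ratio of AT1G26240 to AT1G26250 was 0.733 at 6 h, 0.371 at 24 h and 0.0712 in mock, against 0.249, 0.117 and 0.021 with all reads. Over all libraries 99.98% of the reads of AT1G26240 and 31.58% of those of AT1G26250 were unique, so these ratios rise by arithmetic. Called genes among the modification enzymes at 24 h against mock were 2 in place of 4 with total counts alone and by limma on either scale, and called LRR-extensins 3 in place of 5 on log2(RPKM + 1). Called neighbours at 24 h against mock were 1 in place of 2 with total counts alone, by DESeq2 and by limma on either scale, and on log2(RPKM + 1) they were 0 in place of 1 at 6 h against mock and 1 in place of 2 at 24 h against 6 h. The cause was not tested for these counts.

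Leaving out single libraries gave AT1G26240 6.70 to 7.33 at 24 h against mock. Called genes then numbered 0 to 2 modification enzymes, 8 to 20 root hair genes and 0 to 1 neighbours at 6 h against mock, 1 to 2 neighbours at 24 h against mock, and 11 to 18 extensins and 1 to 2 neighbours at 24 h against 6 h. With mock, same-numbered libraries correlated between -0.05 and 0.15 in their deviations, not each best with its own number, so these were not taken as pairs. With a replicate block AT1G26240 had 3.13 at 6 h and 6.87 at 24 h, AT1G26250 had -0.40 and 4.46, and the genes called were 2813 at 6 h, 7318 at 24 h and 5079 at 24 h against 6 h, next to 2662, 7207 and 4979 without it. The block also made AT5G06630 called at 24 h against mock (0.59) and AT5G35190 and XTH14 at 6 h against mock. Besides these and the counts in the text, no value for the pair moved past its replicate spread, and no count of all called genes or of a whole list by over 1.5 times. Mock levels of AT1G26240 rest on 9 to 22 reads, which limits its fold changes.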
